A study of Mus musculus with 27 samples.

Results

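The genes described here are 42 genes of the endothelium, the cell layer that lines blood and lymphatic vessels, out of 19938 genes measured. They were chosen by name, as genes known from endothelial cells, and each was read from the single probe set that carried its symbol alone. They are grouped by role below: 9 junction and surface adhesion proteins, 9 receptors of vascular ligands, 5 G protein-coupled receptors or (Ramp2) partners of one, 5 secreted and matrix proteins, 3 scavenger receptors, 8 transcription factors and 3 others, namely the enzyme Nos3, the diaphragm protein Plvap and the Rap1 effector Rasip1.

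RNA was taken at Day 3 from 27 mouse cultures, 3 in each of 9 groups, and hybridized to Affymetrix Mouse Gene 1.0 ST arrays, 1 per culture. The study asked how blocking TGFβ signaling changes the conversion of fibroblasts to cardiomyocyte-like cells by 5 factors, Gata4, Hand2, Mef2C, Nkx2.5 and Tbx5 (HNGMT, labelled 5F), carried by doxycycline-inducible lentiviruses. Mouse embryonic fibroblasts (MEFs) without the factors (0TF, labelled 0F and described as empty vector in one label and as no factor treatment in another) or with HNGMT received the vehicle DMSO, 2 ng/mL TGFβ1 or 0.5 µM SB. SB (SB431542) inhibits the kinase of the type I TGFβ, Activin and Nodal receptors. Cardiac fibroblasts (CFs) with HNGMT received DMSO, 2 ng/mL TGFβ1 or 5 µM SB, and no CF group lacked the factors, so the effect of HNGMT in CFs cannot be read from these arrays. By the protocol in the labels all cultures carried lentiviruses for the doxycycline-dependent activator rtTA and for a Troponin T-GCaMP reporter, all received 2 µg/mL doxycycline, and the treatments were added at Day -1. MEFs came from mid-gestation embryos of mixed background after removal of the head and of the viscera with the heart. CFs came from collagenase-digested hearts of adult mice, were plated on gelatin and used at passage 3, with no sort described. The labels call the 3 cultures of a group independent biological replicates, without saying how many embryos or hearts they came from, so the p-values below measure the spread between these cultures.

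Endothelial cells hold together through VE-cadherin (Cdh5), Pecam1 and claudin 5, and read their surroundings through receptor kinases for VEGF (Kdr, Flt1, Flt4) and angiopoietin (Tek, with its relative Tie1). ETS factors such as Erg and Ets1 and the SOX-F factors Sox7, Sox17 and Sox18 maintain their gene program. TGFβ is a regulator of the vessel wall: in endothelial cells it acts through type I receptors together with the co-receptor endoglin (Eng), and prolonged exposure is known to shift cultured endothelial cells towards a mesenchymal state.

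Values are log2 intensities, so a difference of 1 is a doubling. The median of an array lay between 7.83 and 7.91 for MEFs and between 7.36 and 7.43 for CFs, and the cell types were therefore compared only after each array was centred on its median, a shift of -0.47. As a mark of dimness, the 40th percentile of the gene means was 7.75 in MEFs and 7.27 in CFs. In the MEF arrays 24 of the 42 genes had a mean under it, and in the CF arrays 3 did (Mmrn1, Stab2 and Sox17). The third CF culture with SB stood apart from its group: 25 of the 42 genes were at least 2-fold lower in it than in the mean of replicates 1 and 2 and 1 was at least 2-fold higher, where 2.01% of all genes were that much lower and 1.26% that much higher. It is shown apart throughout. Counts of the 42 genes called with a treatment in CFs are given with and without it, because its spread also enters the test of TGFβ1 in CFs. Changes, standard errors and intervals of single genes within CFs are from the fit without it unless stated. CFs were compared with MEFs on all arrays unless stated.

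The endothelial genes were high in the cultures labelled cardiac fibroblasts. With HNGMT and DMSO, 33 of the 42 genes were higher in CFs than in MEFs and 0 were lower (by limma, with the p adjusted over all genes under 0.05 and at least a 1.5-fold change), where 6.65% of all genes were higher and 6.52% lower. The median difference was 2.18 on the log2 scale for these genes and 0.04 over all genes. Cell type, age of the animals, isolation and passage changed together between the groups and cannot be told apart, and in bulk RNA fewer cells of a type and less RNA per cell cannot be told apart. The choice of the genes was made with earlier results of these arrays known, so the count is a description of the cultures.

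**Figure D1:**
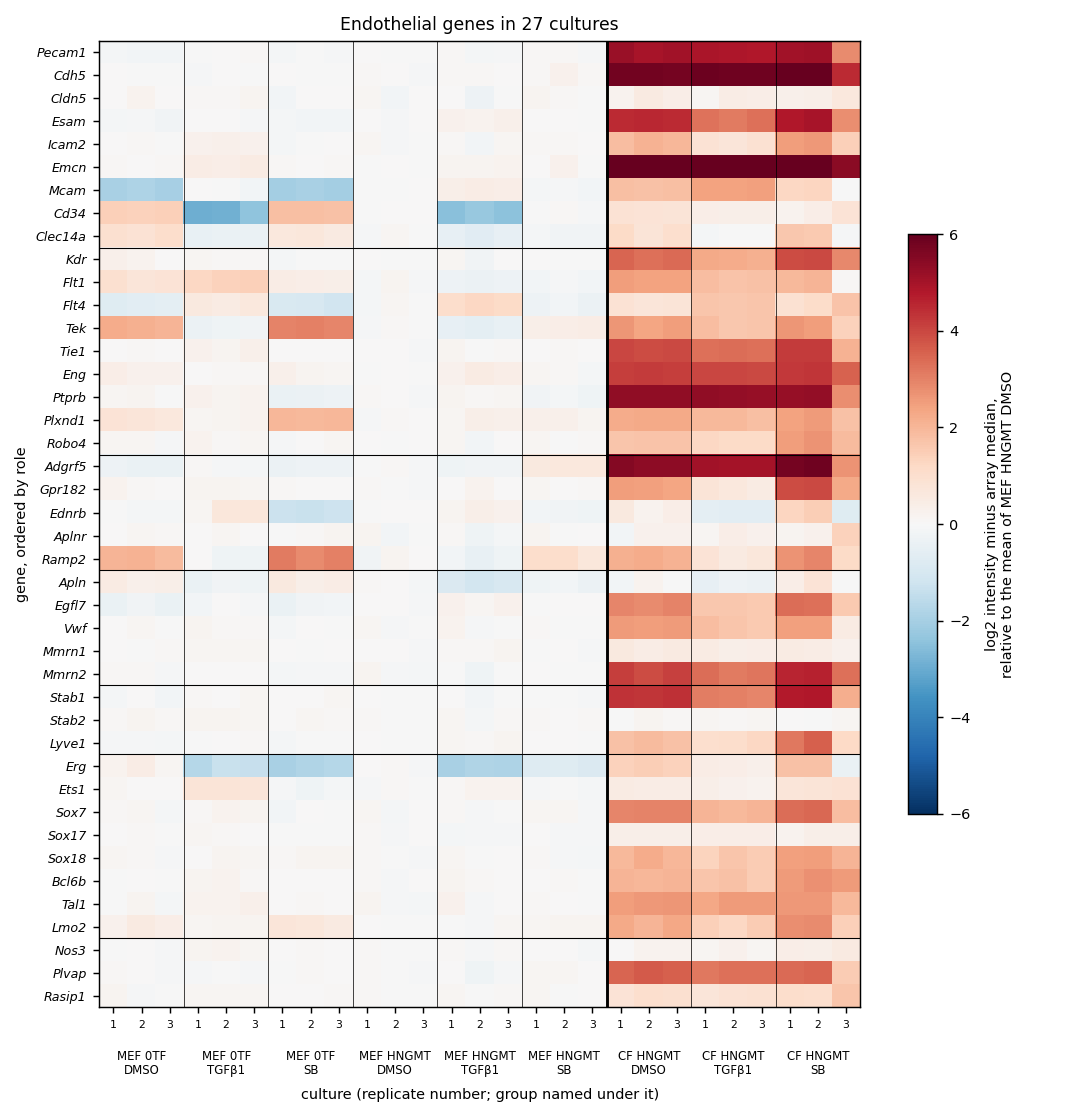
Each row is 1 of the 42 genes, ordered by role, and each column 1 of the 27 cultures, grouped by cell type, factors and treatment. Colour gives the log2 intensity minus the array median, relative to the mean of the MEF cultures with HNGMT and DMSO, from blue (lower) to red (higher). The 9 CF columns on the right are red for most genes, and the last of them, SB replicate 3, is at least 2-fold below its neighbours in 25 of the rows.

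Many of these genes were under the dim limit in MEFs, so that the size of a difference depends on the floor of its probe set and is likely a lower bound, and no order of the genes is read from it. Endomucin (Emcn), a sialoglycoprotein of venous and capillary endothelium, measured 6.27, 6.28 and 6.27 in the MEF cultures with HNGMT and DMSO and 13.10, 12.98 and 13.01 in the corresponding CF cultures. The groups were far apart, by 7.23 ± 0.272 (SE) after centring (adjusted p = 1.04e-15). Cdh5, the adherens junction cadherin, measured 7.38, 7.31 and 7.22 against 12.62, 12.62 and 12.59, a difference of 5.78 ± 0.228. Pecam1 measured 7.20, 7.10 and 7.14 against 11.86, 11.64 and 11.69, and the vascular phosphatase Ptprb 7.39, 7.28 and 7.24 against 12.14, 12.17 and 12.14. In these 4 genes, all dim in MEFs, the lowest CF culture with DMSO lay above the highest MEF culture by several log2 units.

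By role, 8 of 9 junction and adhesion genes, all 9 receptors of vascular ligands, 3 of the 5 in the G protein-coupled receptor group (Adgrf5, Gpr182 and Ramp2), 3 of 5 secreted proteins (Egfl7, Vwf and Mmrn2), 2 of 3 scavenger receptors (Stab1 and Lyve1), 6 of 8 transcription factors, and both Plvap and Rasip1 were higher in CFs. Flt4, the VEGF-C receptor of lymphatic endothelium, differed by 0.79 ± 0.122. Eng, the TGFβ co-receptor, differed by 4.16 ± 0.120 and Kdr, the main VEGF receptor, by 3.39 ± 0.162. Adgrf5, an adhesion receptor of lung and kidney endothelium, differed by 5.41 ± 0.450 and the scavenger receptor Stab1 by 4.34 ± 0.381.

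The 9 genes that did not pass were Cldn5, Ednrb, Aplnr, Apln, Mmrn1, Stab2, Ets1, Sox17 and Nos3. Cldn5, the tight junction claudin of brain endothelium, measured 7.26, 7.60 and 7.48 in the CF cultures with DMSO, Sox17 6.24, 6.27 and 6.25, and endothelial nitric oxide synthase (Nos3) 7.59, 7.77 and 7.80. After centring, their differences from MEFs were 0.38 ± 0.105, 0.34 ± 0.0453 and 0.15 ± 0.0600. Apelin (Apln) and its receptor Aplnr differed by 0.02 ± 0.136 and 0.12 ± 0.201. The endothelin B receptor (Ednrb) differed by 0.40 ± 0.322. Mmrn1, Ets1 and Stab2 differed by 0.53, 0.46 and 0.08. Without centring 29 of the 33 genes passed, and the fold of Cd34, Clec14a, Flt4 and Rasip1 then fell short of 1.5.

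Genes of other cell types were measured in the same cultures. Of 36 further endothelial genes 26 were higher and 3 lower in CFs, among them Podxl, a sialomucin (difference 3.42, adjusted p = 2.77e-14), the adhesion receptor Adgrl4 (2.54), the protein C receptor Procr (2.63) and Esm1 (1.69). Of 20 fibroblast markers 1 was higher and 11 were lower. Col3a1 measured 9.46, 9.53 and 9.53 in CFs against 12.47, 12.54 and 12.46 in MEFs, and Postn 9.24, 8.52 and 9.11 against 13.21, 13.29 and 13.27. The fibroblast markers Col1a1, Dcn and Thy1 were nevertheless far above the dim limit in the CF cultures with DMSO, Dcn at 12.95, 12.85 and 12.90. The cultures labelled cardiac fibroblasts carried defining RNAs of both fibroblasts and endothelium.

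Several of the 42 genes are also known from blood cells, among them Pecam1, Cd34, Tal1, Lmo2 and Stab1. Of 18 leukocyte and macrophage markers, 3 were higher in CFs than in MEFs: Cd53 (difference 2.74), Lyz2 (0.81) and Laptm5 (0.60). The pan-leukocyte gene Ptprc was under the dim limit in all CF cultures with DMSO, at 6.18, 6.22 and 6.23, and so was the macrophage gene Adgre1, at 5.67, 5.89 and 5.86. The summed level of the list, as its mean over genes minus the array median, ran from -0.81 to -0.67 in the CF cultures and from -1.06 to -0.98 in the MEF cultures with HNGMT and DMSO. Of 13 mural cell markers 2 were higher and 2 lower, of 11 mesothelial and epicardial markers 4 and 3, of 13 cardiomyocyte markers 3 and 0, and of 9 proliferation genes 0 and 1. Their part in the differences of the endothelial genes was not tested.

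Treatment of CFs with TGFβ1 lowered many of the endothelial genes. With all 9 CF arrays in the fit, 4 genes were lower (Icam2, Kdr, Gpr182 and Bcl6b) and 1 was higher (Flt4), with the p adjusted over all genes under 0.05 and at least a 1.25-fold change, where 2.2% of all genes were lower and 3.11% higher. Without SB replicate 3, which belongs to neither of the groups compared, 26 were lower and 2 higher (Mcam and Flt4), where 5.8% of all genes were lower and 4.97% higher. A fit of only the DMSO and TGFβ1 cultures called 28 genes. The share over all genes in that fit is not given, so its count is not read as a result about these genes. The fold changes are identical in these fits, since the group means do not change, and only the estimate of the spread differs. The median change was -0.47 for the 42 genes and near 0 over all genes. With all 9 arrays, leaving out any 1 of the DMSO or TGFβ1 cultures left 0 or 1 gene called, where 617 to 927 of all genes were called. Without SB replicate 3, leaving out 1 of these cultures left 24 to 26 of the 42 genes lower and 2 higher. Over all genes 1060 to 1395 were then lower and 941 to 1039 higher.

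With SB in CFs, more of the endothelial genes rose than fell when replicate 3 was left out. With all 3 SB cultures, 2 genes were higher (Ets1 and Bcl6b) and 0 lower, where 0.0451% of all genes were higher and 0.196% lower. By unadjusted p alone (under 0.05), 5 of the 42 genes rose and 3 fell, where 477 of all 19938 genes rose and 763 fell. Without replicate 3, 17 genes were higher and 3 lower (Mcam, Cd34 and Flt1), where 0.858% of all genes were higher and 1.03% lower. With all 3 SB cultures some of these 17 had a change below 0, each with a 95% interval that included 0. They were Adgrf5 (-0.66), Stab1 (-0.43), Erg (-0.38), Esam (-0.32), Egfl7 (-0.17) and Sox7 (-0.08), and the rest of the 17 stayed above 0. The comparison without replicate 3 rests on 2 SB cultures, and leaving out either would leave 1, too few for a count. The median change was 0.25 for the 42 genes and -0.01 over all genes without replicate 3, and -0.03 with it. The SB and TGFβ1 comparisons share their DMSO cultures, so the values of a gene in the 2 comparisons are given side by side and no more is read from their likeness.

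**Figure D2:**
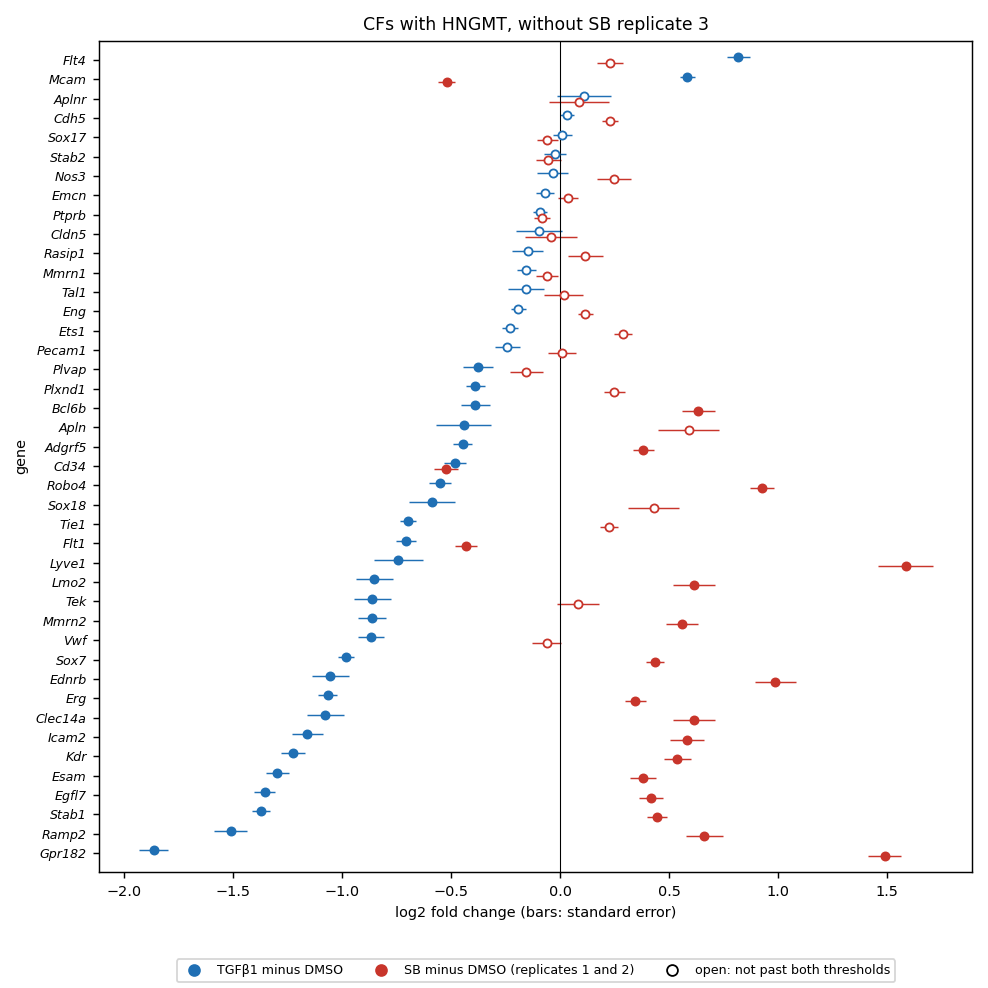
Log2 fold changes of the 42 genes in CFs with HNGMT, ordered by the change with TGFβ1 (blue) and with SB (red, replicates 1 and 2) against the same DMSO cultures, from the fit without SB replicate 3. Bars are standard errors, and filled points passed both thresholds. The blue points run from -1.86 (Gpr182) to 0.82 (Flt4), and the red points from -0.52 (Cd34) to 1.58 (Lyve1).

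Among the junction and adhesion genes, Esam, Icam2 and Clec14a passed in both comparisons without SB replicate 3, while Cdh5, Pecam1, Emcn and Cldn5 passed in neither. Esam, an immunoglobulin-like adhesion molecule of endothelial junctions, measured 11.28, 11.33 and 11.28 with DMSO, 10.0, 9.92 and 10.08 with TGFβ1, and 11.62 and 11.74 in SB replicates 1 and 2 against 9.58 in replicate 3. The TGFβ1 cultures lay below all DMSO cultures, a 2.46-fold fall (adjusted p = 2.44e-06 without SB replicate 3 and 0.171 with it), and SB replicates 1 and 2 lay above them, by 0.38 ± 0.0581 (adjusted p = 0.0133). Icam2, a ligand of leukocyte integrins, measured 8.65, 8.89 and 8.80 with DMSO, 7.63, 7.52 and 7.71 with TGFβ1, and 9.34 and 9.39 in SB replicates 1 and 2 against 8.22 in replicate 3. It fell by 2.23-fold with TGFβ1 (adjusted p = 1.61e-05 without SB replicate 3 and 0.0421 with it) and rose by 1.5-fold in the 2 SB cultures. Clec14a, a C-type lectin of vessels, measured 8.11, 7.74 and 7.94 with DMSO, 6.78, 6.89 and 6.89 with TGFβ1, and 8.56 and 8.52 in SB replicates 1 and 2 against 6.87 in replicate 3. Its change was -1.08 ± 0.0856 with TGFβ1, to values under the CF dim limit and thus likely a lower bound, and 0.61 ± 0.0957 in the 2 SB cultures.

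Mcam, an adhesion molecule that endothelium shares with mural cells and melanocytes, rose with TGFβ1 and fell with SB. It measured 12.20, 12.16 and 12.16 with DMSO, 12.71, 12.76 and 12.80 with TGFβ1, and 11.66 and 11.65 in SB replicates 1 and 2 against 10.37 in replicate 3. Every TGFβ1 culture was above and every SB culture below the DMSO cultures, with changes of 0.58 ± 0.0349 and, in the 2 SB cultures, -0.52 ± 0.0391. Cd34, a sialomucin of endothelium and blood progenitors that fibroblasts also express, measured 12.05, 12.0 and 11.97 with DMSO, 11.54, 11.51 and 11.52 with TGFβ1, and 11.40 and 11.57 in SB replicates 1 and 2 against 12.02 in replicate 3. It was lower with both agents, with changes of -0.48 ± 0.0486 with TGFβ1 and -0.52 ± 0.0543 in the 2 SB cultures, and SB replicate 3 lay among the DMSO cultures.

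Cdh5 measured 12.62, 12.62 and 12.59 with DMSO, 12.64, 12.65 and 12.62 with TGFβ1, and 12.81 and 12.86 in SB replicates 1 and 2 against 11.28 in replicate 3. With TGFβ1 its change was 0.03 ± 0.0320, with a 95% interval from -0.04 to 0.10, and in SB replicates 1 and 2 it was 0.23 (0.14 to 0.31), which did not reach the fold threshold. For Emcn the change with TGFβ1 was -0.07 (-0.16 to 0.03) and with SB 0.04 (-0.07 to 0.14). For Pecam1 these were -0.24 (-0.38 to -0.11) and 0.01 (-0.14 to 0.16). For Cldn5 they were -0.10 (-0.34 to 0.15) and -0.04 (-0.32 to 0.23). In the fit with all arrays the interval of Cdh5 with TGFβ1 ran from -0.81 to 0.88 and that of Emcn from -1.08 to 0.94, so there a change of 1.25-fold could not be told from none.

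**Figure D3:**
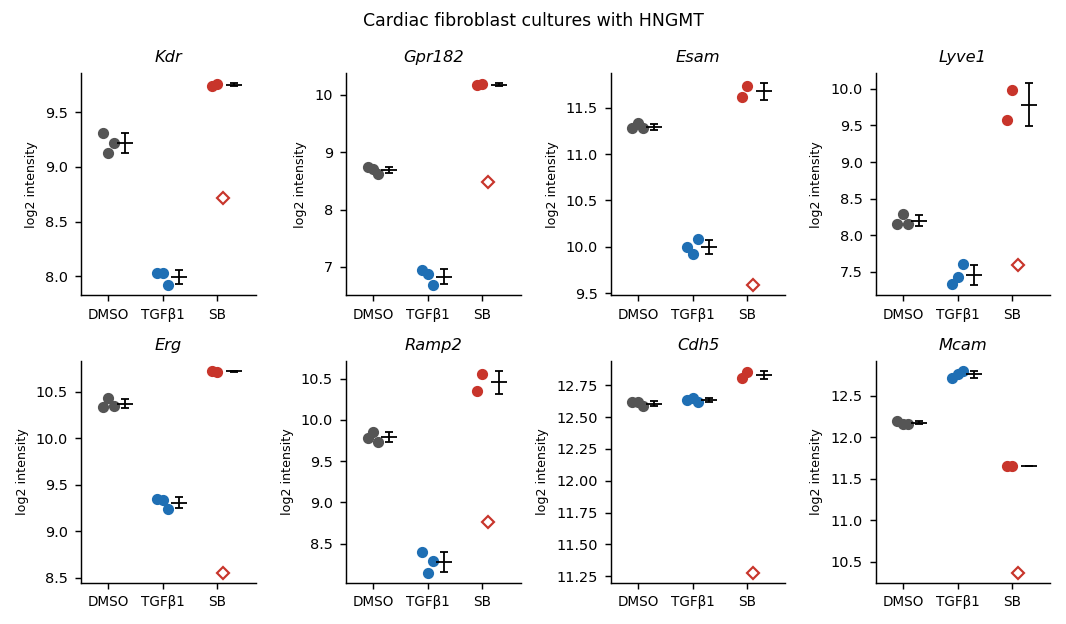
Log2 intensity of 8 genes in the 9 CF cultures with HNGMT, by treatment. Filled points are single cultures, the open diamond is SB replicate 3, and bars give the mean and SD without it. In Kdr, Gpr182, Esam, Lyve1, Erg and Ramp2 the TGFβ1 cultures lie below and SB replicates 1 and 2 above the DMSO cultures, Mcam runs the other way, and Cdh5 changes little except in replicate 3.

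Among the receptors, Kdr measured 9.31, 9.12 and 9.22 with DMSO, 8.03, 8.03 and 7.91 with TGFβ1, and 9.74 and 9.76 in SB replicates 1 and 2 against 8.72 in replicate 3. It fell by 2.34-fold with TGFβ1 (adjusted p = 4.00e-06 without SB replicate 3 and 0.0227 with it) and rose by 1.45-fold in the 2 SB cultures (adjusted p = 0.00366), with no overlap between DMSO, TGFβ1 and SB replicates 1 and 2. Robo4, an endothelial guidance receptor that stabilizes vessels, measured 8.13, 8.20 and 8.22 with DMSO, 7.65, 7.62 and 7.63 with TGFβ1, and 9.03 and 9.19 in SB replicates 1 and 2 against 8.38 in replicate 3. Its change was -0.55 ± 0.0494 with TGFβ1 and 0.93 ± 0.0552 in the 2 SB cultures (adjusted p = 2.27e-04), and all 3 SB cultures were above the DMSO cultures. Flt4 was the receptor that rose with TGFβ1, to 9.42, 9.40 and 9.46 from 8.69, 8.54 and 8.60 with DMSO (adjusted p = 2.10e-05 without SB replicate 3 and 0.0220 with it). Its values with SB were 8.77, 8.91 and 9.50, all above DMSO, without passing either test.

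The angiopoietin receptor Tek fell with TGFβ1 from 9.53, 9.25 and 9.39 to 8.65, 8.45 and 8.48, and its relative Tie1 from 10.85, 10.77 and 10.82 to 10.09, 10.15 and 10.10. Both passed only without SB replicate 3 (adjusted p = 2.17e-04 and 7.52e-06, against 0.135 and 0.523 with it). With SB, Tek measured 9.55, 9.39 and 8.25 and Tie1 11.04, 11.03 and 8.90, and their changes in replicates 1 and 2 were 0.08 and 0.22, short of a call. The VEGF receptor Flt1, a decoy that binds VEGF without strong signaling, measured 10.75, 10.67 and 10.63 with DMSO, 10.04, 9.94 and 9.95 with TGFβ1, and 10.21 and 10.29 in SB replicates 1 and 2 against 8.29 in replicate 3. It changed by -0.71 with TGFβ1 and -0.43 in the 2 SB cultures and passed in both without replicate 3. The semaphorin receptor Plxnd1 measured 11.12, 11.19 and 11.17 with DMSO, 10.79, 10.82 and 10.71 with TGFβ1, and 11.37 and 11.45 in SB replicates 1 and 2 against 10.65 in replicate 3. It changed by -0.39 and 0.25 and passed with TGFβ1 only. Eng and Ptprb passed in neither: Eng changed by -0.19 (-0.27 to -0.12) and 0.12 (0.03 to 0.20), and Ptprb by -0.09 (-0.17 to -0.01) and -0.09 (-0.17 to 0.00).

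The G protein-coupled receptors and Ramp2 held the largest falls with TGFβ1. Gpr182, an atypical chemokine receptor of lymphatic and sinusoidal endothelium, measured 8.73, 8.71 and 8.63 with DMSO, 6.94, 6.87 and 6.68 with TGFβ1, and 10.17 and 10.20 in SB replicates 1 and 2 against 8.49 in replicate 3. The fall with TGFβ1 was 3.64-fold (adjusted p = 1.73e-06 without SB replicate 3 and 0.0290 with it), and the rise in the 2 SB cultures was 2.81-fold (adjusted p = 1.25e-04). The TGFβ1 cultures were under the CF dim limit, where a fall is understated, so this fold is likely a lower bound. Ramp2, the partner that makes the calcitonin receptor-like receptor a receptor for adrenomedullin, measured 9.78, 9.86 and 9.74 with DMSO, 8.40, 8.15 and 8.29 with TGFβ1, and 10.35 and 10.55 in SB replicates 1 and 2 against 8.77 in replicate 3. It fell by 2.85-fold with TGFβ1 (adjusted p = 6.80e-06 without SB replicate 3 and 0.0623 with it). Ednrb, the endothelin receptor of endothelial cells, measured 8.76, 8.43 and 8.58 with DMSO, 7.57, 7.54 and 7.51 with TGFβ1, and 9.49 and 9.67 in SB replicates 1 and 2 against 7.44 in replicate 3. Its changes were -1.05 ± 0.0841 with TGFβ1 and 0.99 ± 0.0940 in the 2 SB cultures. With all 3 SB cultures the changes of Gpr182 and Ednrb were 0.92 (-0.003 to 1.85) and 0.28 (-0.90 to 1.45). Adgrf5 measured 12.15, 12.02 and 12.06 with DMSO, 11.67, 11.61 and 11.61 with TGFβ1, and 12.43 and 12.49 in SB replicates 1 and 2 against 9.35 in replicate 3. It changed by -0.45 and 0.38, and its fall in replicate 3 was the largest of the 42 genes. The apelin receptor Aplnr changed by 0.11 (-0.18 to 0.39) and 0.09 (-0.23 to 0.41).

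Of the secreted and matrix proteins, Egfl7, an endothelial matrix factor, measured 11.36, 11.26 and 11.41 with DMSO, 9.98, 10.01 and 9.98 with TGFβ1, and 11.81 and 11.71 in SB replicates 1 and 2 against 9.99 in replicate 3. It fell by 2.56-fold with TGFβ1 (adjusted p = 1.47e-06 without SB replicate 3 and 0.0982 with it) and rose by 1.33-fold in the 2 SB cultures. Mmrn2, which binds Clec14a in the vessel wall, measured 10.27, 10.08 and 10.23 with DMSO, 9.43, 9.23 and 9.34 with TGFβ1, and 10.74 and 10.75 in SB replicates 1 and 2 against 9.44 in replicate 3. It changed by -0.86 and 0.56. Von Willebrand factor (Vwf) fell by 1.82-fold with TGFβ1, from 9.67, 9.66 and 9.68 to 8.94, 8.77 and 8.69, and measured 9.63, 9.58 and 7.61 with SB. Apln measured 9.19, 9.56 and 9.32 with DMSO, 8.79, 9.02 and 8.94 with TGFβ1, and 9.75 and 10.14 in SB replicates 1 and 2 against 9.30 in replicate 3. It fell with TGFβ1 by 1.36-fold (adjusted p = 0.0398 without SB replicate 3) and its change of 0.59 with SB did not pass. Mmrn1 was dim throughout, between 5.42 and 5.74 in CFs.

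The scavenger receptor Stab1, which clears modified lipoproteins and matrix fragments in sinusoidal endothelium and macrophages, measured 11.27, 11.22 and 11.29 with DMSO, 9.94, 9.90 and 9.82 with TGFβ1, and 11.68 and 11.73 in SB replicates 1 and 2 against 9.07 in replicate 3. It fell by 2.59-fold with TGFβ1 (adjusted p = 5.69e-07 without SB replicate 3 and 0.250 with it) and rose by 1.36-fold in the 2 SB cultures. The hyaluronan receptor Lyve1, a lymphatic marker, measured 8.16, 8.29 and 8.15 with DMSO, 7.33, 7.44 and 7.61 with TGFβ1, and 9.58 and 9.99 in SB replicates 1 and 2 against 7.59 in replicate 3. It had the largest change in SB replicates 1 and 2, 3.00-fold (adjusted p = 6.59e-04 by limma), while replicate 3 lay below every DMSO culture. With all 3 SB cultures its change was 0.85 (-0.36 to 2.07). Stab2 stayed between 6.70 and 6.90 in all CF cultures.

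Among the transcription factors, Erg measured 10.34, 10.43 and 10.35 with DMSO, 9.34, 9.34 and 9.24 with TGFβ1, and 10.72 and 10.71 in SB replicates 1 and 2 against 8.55 in replicate 3. Its fall with TGFβ1 was 2.09-fold (adjusted p = 2.62e-06 without SB replicate 3 and 0.282 with it) and its rise in the 2 SB cultures 1.27-fold. Sox7 measured 9.27, 9.32 and 9.34 with DMSO, 8.33, 8.30 and 8.36 with TGFβ1, and 9.71 and 9.78 in SB replicates 1 and 2 against 8.19 in replicate 3, with changes of -0.98 and 0.44. Lmo2, an adaptor of hematopoietic and endothelial factor complexes, measured 9.29, 9.09 and 9.35 with DMSO, 8.41, 8.24 and 8.52 with TGFβ1, and 9.85 and 9.86 in SB replicates 1 and 2 against 8.44 in replicate 3, with changes of -0.85 and 0.61. In both factors the TGFβ1 cultures and SB replicate 3 lay below all DMSO cultures. Sox18 measured 9.22, 9.51 and 9.28 with DMSO, 8.56, 8.94 and 8.75 with TGFβ1, and 9.75 and 9.78 in SB replicates 1 and 2 against 9.31 in replicate 3. It fell by 1.5-fold with TGFβ1 and its change with SB was 0.43, without a call. Bcl6b, a zinc finger repressor, was a factor in which SB replicate 3 stayed with its group. It measured 8.73, 8.70 and 8.74 with DMSO, 8.33, 8.46 and 8.21 with TGFβ1 and 9.29, 9.43 and 9.25 with SB. It passed with all arrays in both comparisons (adjusted p = 0.0145 for TGFβ1 and 0.0190 for SB). Ets1 rose with SB in all 3 cultures, to 9.0, 9.03 and 9.14 from 8.76, 8.71 and 8.71 (adjusted p = 0.0456), a change just past the fold threshold with replicate 3 (1.26-fold) and just short of it without (1.22-fold). Tal1, a partner of Lmo2, passed in neither, with changes of -0.16 (-0.34 to 0.03) and 0.02 (-0.19 to 0.22), and neither did Sox17, with 0.01 (-0.09 to 0.11) and -0.06 (-0.17 to 0.05).

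Plvap, which forms the diaphragms of fenestrae and caveolae, measured 11.06, 11.26 and 11.13 with DMSO, 10.65, 10.83 and 10.83 with TGFβ1, and 10.96 and 11.03 in SB replicates 1 and 2 against 9.07 in replicate 3. It fell by 1.30-fold with TGFβ1 (adjusted p = 0.00500 without SB replicate 3, 0.754 with it). Nos3 changed by -0.03 (-0.20 to 0.13) with TGFβ1 and 0.25 (0.06 to 0.43) in the 2 SB cultures, and Rasip1 by -0.15 (-0.32 to 0.02) and 0.12 (-0.07 to 0.30), without a call.

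Promoters of 3 of the genes that fell with TGFβ1, and rose in SB replicates 1 and 2, are shown as examples with and without the motif searched, chosen after their values were seen. They hold 250 bases before and 50 bases after the RefSeq start (build GRCm38.p6), and capitals mark AGGAAG, a core that ETS factors bind, on the printed strand. Robo4 lies at chr9:37401722-37402021, plus strand, Stab1 at chr14:31168592-31168891, minus strand and Kdr at chr5:75978406-75978705, minus strand.
Robo4: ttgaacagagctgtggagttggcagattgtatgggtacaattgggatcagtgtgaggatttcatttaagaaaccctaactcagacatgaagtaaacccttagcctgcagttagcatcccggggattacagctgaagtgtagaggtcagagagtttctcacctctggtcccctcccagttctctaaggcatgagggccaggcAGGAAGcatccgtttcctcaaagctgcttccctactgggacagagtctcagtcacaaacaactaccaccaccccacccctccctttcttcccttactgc
Stab1: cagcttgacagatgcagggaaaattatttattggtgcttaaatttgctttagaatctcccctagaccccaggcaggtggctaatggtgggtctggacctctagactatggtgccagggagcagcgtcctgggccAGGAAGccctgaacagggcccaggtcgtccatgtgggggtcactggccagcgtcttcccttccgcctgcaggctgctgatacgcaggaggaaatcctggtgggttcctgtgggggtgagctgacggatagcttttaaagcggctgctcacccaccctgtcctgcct
Kdr: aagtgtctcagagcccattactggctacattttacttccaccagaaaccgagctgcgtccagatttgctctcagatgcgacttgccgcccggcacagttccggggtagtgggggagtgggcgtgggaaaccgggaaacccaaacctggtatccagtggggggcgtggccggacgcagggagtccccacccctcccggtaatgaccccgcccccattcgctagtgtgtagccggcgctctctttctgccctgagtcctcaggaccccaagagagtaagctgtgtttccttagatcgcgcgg
AGGAAG, searched on both strands, was found in 14 of the 23 endothelial genes with a promoter in the table and in 35.4% of all 32851 promoters of that length. The shorter GGAA, which AGGAAG contains, was in 22 of 23 and in 96.0% of all promoters. The motif AGATAA, bound by Gata factors, was in Tek, Erg and Tal1, 3 of 23, and in 11.2% of all. Robo4 and Stab1 hold 1 match to AGGAAG each and Kdr none. A gene counted if any of its promoters held the motif, while the percentages count single promoters. A gene with several starts thus had more chances, and the figures are not like for like. A match is a description of the letters only.

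The third SB culture of CFs was lower than replicates 1 and 2 in most of these genes and not in others. The differences ran from -3.11 for Adgrf5 and -2.63 for Stab1 to 1.18 for Aplnr, with a median of -1.3 against 0.03 over all genes. Ptprb measured 12.05, 12.07 and 9.60 in the 3 SB cultures, Pecam1 11.72, 11.76 and 9.52 and Emcn 13.07, 13.06 and 11.20. Flt4, Rasip1, Cd34, Cldn5, Nos3, Ets1, Sox17 and Stab2 were between 0.08 and 0.67 higher in replicate 3, and Bcl6b and Mmrn1 were 0.11 and 0.21 lower.

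Other lists moved in the same culture. Of 36 other endothelial genes 12 were at least 2-fold lower and 0 higher, with the calcitonin receptor-like receptor Calcrl at 11.56, 11.53 and 7.94. Of 20 fibroblast markers 6 were at least 2-fold higher and 0 lower, and their mean was 10.84 against 10.25 and 10.28 in replicates 1 and 2, with Pdgfra at 8.62, 8.61 and 10.39. Of 11 mesothelial and epicardial markers 4 were higher and 1 lower. Of 9 proliferation genes 3 were lower, with a mean of 9.57 against 10.46 and 10.57. Of 18 leukocyte markers 1 was higher, Cd53, at 8.62, 8.70 and 10.88, while Ptprc stayed at 6.11, 6.10 and 6.15. Of 13 cardiomyocyte markers 2 were lower and 0 higher, of 13 mural cell markers 2 lower and 1 higher, and of 15 TGFβ target genes 3 lower. The part of any of these in the values of the culture was not tested.

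**Figure D4:**
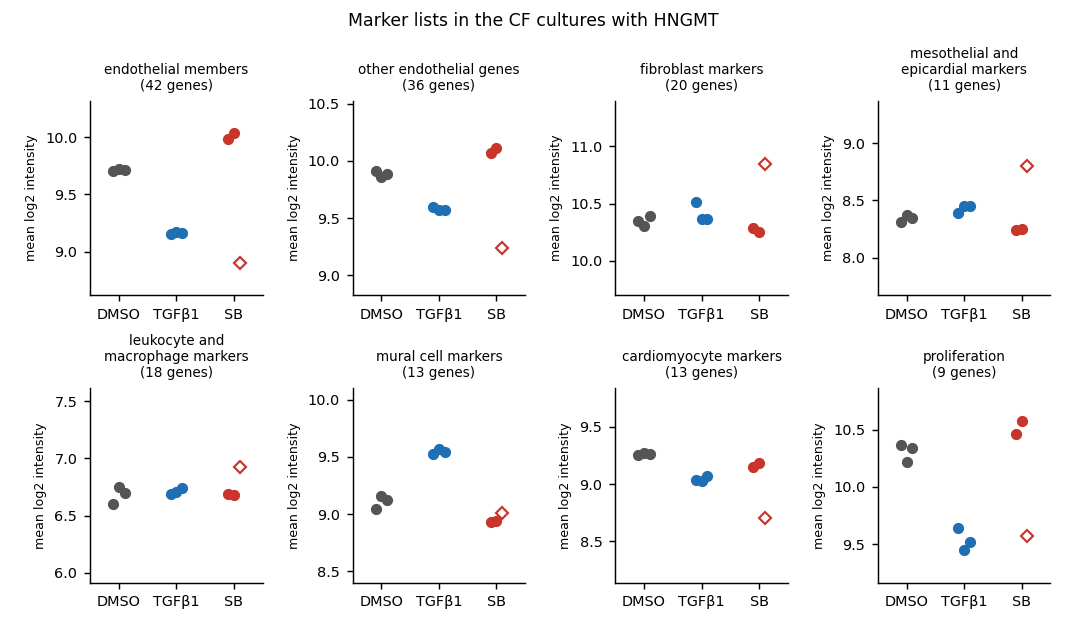
Mean log2 intensity over the genes of 8 lists in each of the 9 CF cultures with HNGMT, by treatment. Filled points are single cultures and the open diamond is SB replicate 3, with the number of genes of each list over its panel and an axis of the same height in all panels. The endothelial means run from 9.71 to 9.72 with DMSO, from 9.15 to 9.17 with TGFβ1 and from 9.99 to 10.04 in SB replicates 1 and 2, and replicate 3 is at 8.90, while its fibroblast and mesothelial means lie above those of all other CF cultures.

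Beside the endothelial genes, other lists moved with TGFβ1 in CFs in the fit without SB replicate 3. Of 36 other endothelial genes 15 fell and 3 rose, with log2 changes of -1.58 for Sele, an adhesion molecule of activated endothelium (adjusted p = 1.92e-06), -0.77 for the ETS factor Fli1 and -1.11 for Podxl. Of 20 vascular ligands 6 fell and 5 rose, with the angiopoietins Angpt2 and Angpt4 at -1.91 and 2.14 and placental growth factor (Pgf) at 1.76. Of 12 Notch pathway genes 3 fell, among them Notch1 (-0.80) and Nrarp (-0.96), and 3 rose. Of 13 mural cell markers 6 rose, with smooth muscle myosin (Myh11) at 1.13, and 0 fell. All 9 proliferation genes fell, with Mki67 at -0.96. Of 15 TGFβ target genes 9 rose, with Ltbp2 at 1.86 and Pmepa1 at 1.64, and 4 fell. Fibroblast markers went both ways (4 up and 3 down of 20), as did mesothelial markers (2 and 2 of 11), leukocyte markers (1 and 1 of 18) and cardiomyocyte markers (1 and 5 of 13). The mean over the leukocyte list was 6.69 to 6.74 with TGFβ1 against 6.60 to 6.75 with DMSO, and that over the mural list 9.52 to 9.57 against 9.04 to 9.16. Their part in the change of the endothelial genes was not tested.

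With SB in replicates 1 and 2, 10 of the 36 other endothelial genes rose and 1 fell, among them Fabp4, a fatty acid carrier (1.19, adjusted p = 2.27e-04), Gimap4 (1.01) and Arhgef15 (0.63), with the water channel Aqp1 at -0.63. Of the vascular ligands Angpt2 rose (0.83) and 5 fell, with Cxcl12 at -0.88. Of the Notch genes Nrarp rose (0.91) and Hey2 fell (-0.50). Of the mural markers 4 fell and 0 rose, of the TGFβ targets 4 and 0, of the fibroblast markers 2 and 0, and of the mesothelial markers 1 and 0. Cd53 was the leukocyte marker that rose (0.34), 0 of 9 proliferation genes passed, and of 13 cardiomyocyte markers Pln rose (0.34) and Nppb fell (-0.44). The part of these lists in the change of the endothelial genes was not tested.

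In MEFs fewer of the endothelial genes passed, and most of those that did were above the dim limit in at least 1 of the groups compared. With HNGMT, SB raised Adgrf5 and Ramp2 and lowered Erg, by the 1.5-fold rule, where 0.391% of all genes were higher and 0.431% lower. TGFβ1 raised Flt4 and lowered Cd34, Apln and Erg, where 2.23% were higher and 3.54% lower. Without the factors, SB raised Tek, Plxnd1 and Ramp2 and lowered Ednrb and Erg (1.26% and 1.13% of all genes), and TGFβ1 raised Mcam, Flt4 and Ets1 and lowered Cd34, Clec14a, Tek, Plxnd1, Ramp2, Apln and Erg (4.21% and 6.19%). HNGMT itself, against 0TF with DMSO, raised Mcam and Flt4 and lowered Cd34, Clec14a, Flt1, Tek, Plxnd1 and Ramp2 (4.56% and 4.51%). The median changes of the 42 genes in these comparisons lay between -0.04 and 0.03. Pecam1, Cdh5, Emcn, Kdr, Tie1, Robo4, Gpr182, Stab1, Lyve1 and Sox7 stayed under the dim limit in all 18 MEF cultures and passed in none of these comparisons. Other lists moved in the same cultures. With TGFβ1, 5 mural markers rose and 1 fell without the factors and 2 rose with them, and 5 and 7 of the 9 proliferation genes fell. With HNGMT against 0TF, 9 of 13 cardiomyocyte markers and 6 of 13 mural markers rose and 8 of 20 fibroblast markers fell. Their part was not tested.

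**Figure D5:**
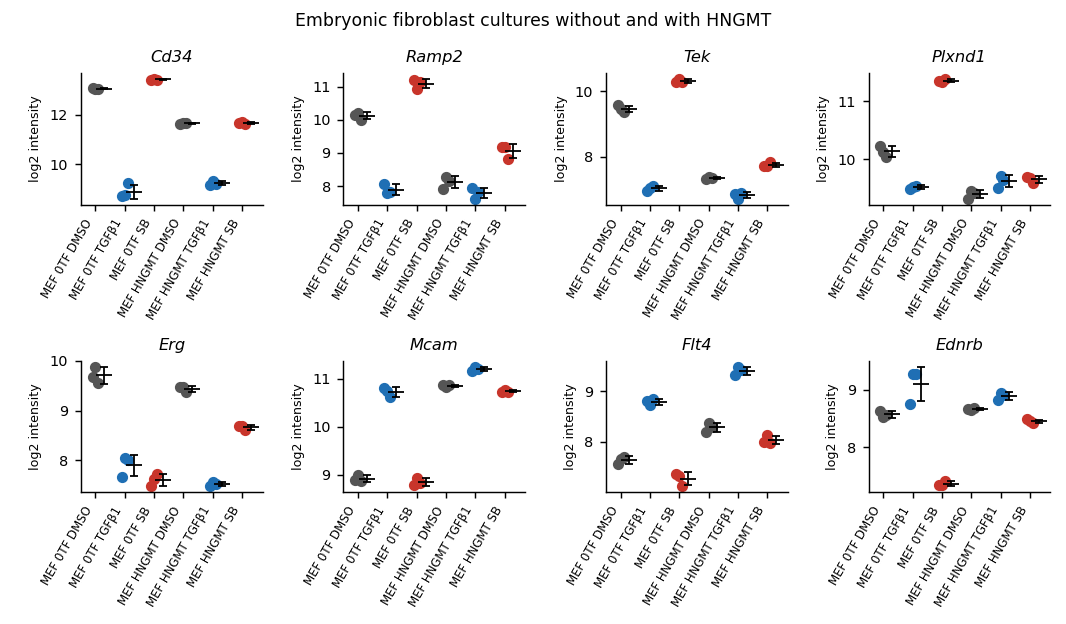
Log2 intensity of 8 genes in the 18 MEF cultures, by factors and treatment (grey DMSO, blue TGFβ1, red SB). Each point is 1 culture, and the bars show the mean with the SD of the 3. Cd34 is low in all 6 TGFβ1 cultures, Tek, Ramp2 and Plxnd1 are highest with SB without the factors, Mcam without the factors is high only with TGFβ1, and Erg with DMSO lies above Erg with either agent.

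Cd34 had the widest range in MEFs. Without the factors it measured 13.09, 13.06 and 13.08 with DMSO, 8.69, 8.72 and 9.21 with TGFβ1 and 13.44, 13.46 and 13.44 with SB. The fall with TGFβ1 was 18.4-fold (-4.20 ± 0.0910, adjusted p = 1.75e-16). With HNGMT it measured 11.65, 11.66 and 11.68 with DMSO, 9.16, 9.33 and 9.19 with TGFβ1 and 11.66, 11.70 and 11.62 with SB, a fall of 5.43-fold with TGFβ1. Both TGFβ1 groups ended near 9, and the smaller change with HNGMT went with a lower starting level. The changes differed by 1.76 ± 0.129 (adjusted p = 9.11e-09).

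Tek and Ramp2 were lower with HNGMT than without. Without the factors, Tek measured 9.57, 9.46 and 9.38 with DMSO, 6.95, 7.05 and 7.09 with TGFβ1 and 10.28, 10.36 and 10.28 with SB. Against DMSO it fell 5.41-fold with TGFβ1 and rose 1.79-fold with SB, and its values with TGFβ1 were under the MEF dim limit. With HNGMT it measured 7.31, 7.39 and 7.34 with DMSO, 6.86, 6.71 and 6.88 with TGFβ1 and 7.70, 7.71 and 7.82 with SB, and neither change reached 1.5-fold. Without the factors, Ramp2 measured 10.16, 10.22 and 10.01 with DMSO, 8.07, 7.78 and 7.81 with TGFβ1 and 11.20, 10.94 and 11.13 with SB. With HNGMT it measured 7.91, 8.28 and 8.16 with DMSO, 7.93, 7.61 and 7.82 with TGFβ1 and 9.19, 9.17 and 8.82 with SB. SB raised it 1.95-fold without and 1.92-fold with HNGMT, in 3 of 3 cultures each. Plxnd1 measured 10.23, 10.12 and 10.04 with DMSO and 11.34, 11.33 and 11.38 with SB without the factors, a rise of 2.33-fold. With HNGMT it measured 9.31, 9.45 and 9.41 with DMSO and 9.70, 9.67 and 9.59 with SB. The SB effects on Plxnd1 differed by -0.96 ± 0.0776 (adjusted p = 1.80e-07).

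Erg fell in MEFs with either agent. Without the factors it measured 9.67, 9.89 and 9.56 with DMSO, 7.66, 8.04 and 8.01 with TGFβ1 and 7.48, 7.63 and 7.72 with SB. Both treated groups lay below all DMSO cultures, by 3.49-fold and 4.27-fold (adjusted p = 1.42e-11 and 1.48e-11). With HNGMT it measured 9.48, 9.47 and 9.37 with DMSO, 7.49, 7.56 and 7.53 with TGFβ1 and 8.69, 8.68 and 8.61 with SB, and the fall with SB was 1.72-fold, smaller by 1.31 ± 0.127 than without the factors (adjusted p = 1.72e-06). In CFs, at the higher dose, Erg lay above the DMSO cultures in 2 SB cultures and below them in the third. The SB doses of the cell types differ, and the values are set side by side only.

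Mcam rose with TGFβ1 and with HNGMT in MEFs. It measured 8.89, 9.0 and 8.87 without factors, 10.81, 10.76 and 10.62 with TGFβ1, and 10.87, 10.82 and 10.87 with HNGMT, and it reached 11.17, 11.26 and 11.20 with both. The rise with TGFβ1 was 3.50-fold without and 1.28-fold with the factors, a difference of -1.45 ± 0.0724 (adjusted p = 7.32e-11). Flt4 rose 2.23-fold and 2.17-fold with TGFβ1, from 7.55, 7.67 and 7.69 to 8.81, 8.73 and 8.85 and from 8.20, 8.38 and 8.29 to 9.33, 9.48 and 9.43. It also rose with TGFβ1 in CFs, so its direction was the same in the 3 settings. Ets1 rose 1.58-fold with TGFβ1 without factors, from 8.87, 8.75 and 8.75 to 9.46, 9.48 and 9.40.

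Without the factors, Ednrb measured 8.64, 8.53 and 8.56 with DMSO and 7.35, 7.34 and 7.42 with SB, a fall of 2.31-fold. With HNGMT it measured 8.66, 8.66 and 8.68 with DMSO and 8.49, 8.45 and 8.43 with SB. The 2 effects differed by 0.99 ± 0.132 (adjusted p = 5.71e-05). Clec14a fell 2.68-fold with TGFβ1 without factors, from 8.39, 8.29 and 8.45 to 6.92, 6.98 and 6.97, and with HNGMT it was already lower, at 7.35, 7.49 and 7.41. Apln fell with TGFβ1 in both, from 10.33, 10.11 and 10.15 to 9.38, 9.53 and 9.51 without and from 9.92, 9.80 and 9.72 to 8.95, 8.65 and 8.82 with HNGMT, 1.65-fold without and 2.01-fold with HNGMT. Adgrf5 rose with SB and HNGMT from 7.13, 7.21 and 7.10 to 7.71, 7.77 and 7.79, 1.53-fold, at a level close to the dim limit. Flt1 was 1.77-fold lower with HNGMT than without (8.63, 8.85 and 8.67 against 9.66, 9.44 and 9.51).

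Tests of the difference between effects were passed by 3 of the 42 genes for SB with HNGMT against without (1.96% of all genes), namely Plxnd1, Ednrb and Erg. They were passed by 8 for TGFβ1 (7.45%), namely Mcam, Cd34, Clec14a, Flt1, Tek, Eng, Plxnd1 and Ramp2. TGFβ1 was given at 2 ng/mL to both cell types, so its effects with HNGMT could be compared between CFs and MEFs. They differed in 9 genes (4.3% of all genes). Of these Gpr182 (-1.89 ± 0.355), Egfl7 (-1.51 ± 0.370), Esam (-1.51 ± 0.430), Ramp2, Kdr, Icam2, Plxnd1 and Sox18 had the more negative change in CFs, and Cd34 (1.97 ± 0.167) the more negative change in MEFs. Without SB replicate 3 there were 18, and Erg, with a difference of 0.85, was then the second gene with the more negative change in MEFs. The share over all genes in that fit is not given, so the rise from 9 to 18 is not read as a result about these genes. Kdr, Gpr182, Icam2 and Esam were under the dim limit in all MEF cultures, at which level a fall may not be measurable.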

How the data were processed

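Each of 27 cultures gave 1 Affymetrix Mouse Gene 1.0 ST array. The deposited values are log2 intensities per probe set that the authors made with Affymetrix Microarray Suite 5.0 (MAS5, as the submitters' processing notes also name it) and Partek, and how they were normalized is not given in the sources used here. Of 35556 probe sets, 21789 carried 1 gene symbol in the platform annotation, 1621 several and 12146 none, and the brightest single-symbol probe set stood for each of 19938 genes. Groups came from the labels, whose protocol text for CFs describes MEFs. Differences were tested with limma 3.58.1 in R 4.3.3 (lmFit, eBayes, Benjamini-Hochberg adjustment over all genes) on the 18 MEF arrays, the 9 CF arrays or, with each array centred on its median, all 27. A gene was called at an adjusted p under 0.05 and a fold of at least 1.5, or 1.25 within CFs. SB was not compared between cell types, because the doses differed. The code was tested on simulated data. The 42 genes, the other lists and the tests were chosen with earlier results of these data known. All 42 genes could be named, and of each other list up to 4 called genes with the smallest p per comparison, besides markers named for a level. The alternatives were other arrays in the fit, a replicate block, a trended robust variance, a filter on dim genes, the mean of probe sets, other normalization, no fold threshold and each culture left out. Array signal, not a count of reads, limits the precision.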

Additional observations from a re-analysis of the deposited data

Results flagged for a closer look

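Results are given here because the effect of one treatment, tested as a difference of effects with limma, differed between groups of cultures. The SB effect in MEFs with HNGMT minus that without it was -0.96 ± 0.0776 for Plxnd1 (adjusted p = 1.80e-07), 0.99 ± 0.132 for Ednrb (adjusted p = 5.71e-05) and 1.31 ± 0.127 for Erg (adjusted p = 1.72e-06), each as a log2 difference ± SE over 3 cultures a group.

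The TGFβ1 effect in MEFs with HNGMT minus that without it was -1.45 ± 0.0724 for Mcam (adjusted p = 7.32e-11), 1.76 ± 0.129 for Cd34 (adjusted p = 9.11e-09), 0.84 ± 0.0837 for Clec14a (adjusted p = 4.60e-07) and -0.83 ± 0.0894 for Flt1 (adjusted p = 1.14e-06). It was 1.90 ± 0.0787 for Tek (adjusted p = 6.31e-12), 0.64 ± 0.0885 for Eng (adjusted p = 2.11e-05), 0.84 ± 0.0776 for Plxnd1 (adjusted p = 1.63e-07) and 1.91 ± 0.164 for Ramp2 (adjusted p = 7.05e-08). In Tek, Ramp2, Cd34, Clec14a, Flt1 and Plxnd1 the DMSO level was already lower with HNGMT, and in Mcam it was higher. Eng with DMSO was 9.92 without and 9.62 with HNGMT, short of a 1.5-fold change.

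With HNGMT, the TGFβ1 effect in CFs minus that in MEFs was -1.51 ± 0.430 for Esam (adjusted p = 0.0202), -1.12 ± 0.249 for Icam2 (adjusted p = 0.00323), 1.97 ± 0.167 for Cd34 (adjusted p = 1.72e-08), -1.15 ± 0.229 for Kdr (adjusted p = 0.00116) and -0.61 ± 0.174 for Plxnd1 (adjusted p = 0.0208). It was -1.89 ± 0.355 for Gpr182 (adjusted p = 6.64e-04), -1.17 ± 0.378 for Ramp2 (adjusted p = 0.0413), -1.51 ± 0.370 for Egfl7 (adjusted p = 0.00687) and -0.59 ± 0.143 for Sox18 (adjusted p = 0.00626). These values include the CF culture SB replicate 3 in the estimate of the spread.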

How the results depend on the processing

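The counts of endothelial genes called in CFs depended on 1 library, SB replicate 3, and on the arrays in the fit. For SB the count of 2 became 0 in a fit of only the groups compared, 0 with the replicate block, and 1 each with a trended robust variance, the mean of probe sets and arrays centred on their median. Leaving out 1 culture gave 0 to 20, with 20 only without SB replicate 3, where 2 to 377 of all genes were called. For TGFβ1 the count of 5 became 28 in a fit of only the groups compared and 28 without SB replicate 3, and leaving out 1 culture of these groups gave 0 to 1. Without SB replicate 3, a setting whose own alternatives were chosen after seeing the data, SB called 20 genes, 20 with the replicate block and 10 to 21 with 1 more culture left out (12 without SB replicate 1, 10 without SB replicate 2, where the lone SB culture is assumed to vary like the others), and TGFβ1 called 28, or 26 to 28. The difference of the TGFβ1 effect between CFs and MEFs called 9 genes, 18 without SB replicate 3, 14 with no fold threshold and 7 to 8 with 1 culture left out. Counts over all genes are not given for the settings with 18 and 14, nor for the fits of only the groups compared. The counts in those settings are thus not read as results about these genes.

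With no fold threshold the counts in MEFs rose from 3 to 7 (SB with HNGMT), 4 to 14 (TGFβ1 with HNGMT), 5 to 12 (SB without factors), 10 to 20 (TGFβ1 without factors), 8 to 16 (HNGMT against 0TF), 3 to 6 (SB interaction) and 8 to 14 (TGFβ1 interaction). Leaving out 1 culture gave 3, 4 to 5, 5, 9 to 11, 8, 3 to 4 and 8 in that order, and 33 for CFs against MEFs. The number of all genes called without the fold threshold is not given here. The higher counts without it are thus not read as a result about these genes. Replicate numbers did not pair the cultures: the best match had the same number in 7 of 18 MEF and 5 of 9 CF cultures. Of 92 results for single endothelial genes, 0 reversed in 1393 recomputed values, and with 1 culture left out 59 values no longer passed. This check took genes called in the main fits, which for SB in CFs were Ets1 and Bcl6b only. Genes called with SB only without replicate 3 were outside it. Among those, Esam, Adgrf5, Egfl7, Stab1, Erg and Sox7 had a change above 0 without replicate 3 and below 0 with it. The cause of the changes was not tested, apart from the larger spread that SB replicate 3 brings. Genes under the dim limit have values close to background, where a change is understated.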
